A study of Mus musculus with 29 samples.

Results

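Skeletal muscle of mice kept on 60% of ad libitum intake with the diet labelled fish (fish oil as the fat) was set against muscle of mice on the control diet. Of the 29 RNA-seq libraries of the series, 7 belong to this comparison: 3 fish muscles (mice 1067, 1123 and 1124) and 4 control muscles (mice 1071, 1095, 1120 and 1121). All animals were male C57BL/6 mice, purchased when 14 weeks old, and the diets began at 4 months. The fish group received 8.6 kcal per day. A soy and a lard group (3 and 4 muscles) received the same 60% of intake with other fats. The control group received 95% of ad libitum intake, 13.6 kcal per day. The labels do not state the fat of the control diet, and in fish against control the lower intake and the kind of fat cannot be told apart. Fish against the mean of soy and lard compares fats at equal intake. RNA was taken from the entire hindlimb musculature, which mixes fibre types with fat, vessels, nerve, connective tissue, blood and, if included, bone marrow. The muscle of a further fish mouse, 1125, had been discarded by the submitters because of its clustering and lower RNA integrity. The series title names omega-3 fatty acids and long-term calorie restriction, and the question of this comparison is what the restricted fish oil diet changed in the muscle transcriptome.

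Calorie restriction is known to shift muscle toward the use of fatty acids and amino acids, to lower insulin and IGF-1 signalling, and to raise glucocorticoid target genes. Long-chain omega-3 fatty acids of fish oil enter membranes, bind nuclear receptors such as PPARs and restrain SREBP-1, the transcription factor of fatty acid synthesis, a relation best known from liver. The integrated stress response, a further pathway described here in detail, slows general translation when amino acids are scarce or mitochondria or the endoplasmic reticulum are disturbed, while the transcription factor ATF4 is made and switches on genes of amino acid synthesis and transport.

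The muscle libraries held 12580798 to 27106865 exon reads, with a median of 14884999, and levels are given as CPM, exon reads scaled to a common library total with TMM factors. A library is named by its diet and mouse. The summed level of 13 skeletal muscle markers was 177172 to 202031 CPM in fish muscle and 162176 to 312283 CPM in control muscle, with no marker at 0. Control 1071 and control 1120 stood apart from the other 12 muscle libraries: on the first principal component, with 31.6% of the variance, they lay at 59.9 and 68.1, the others between -21.6 and 10.6. Their summed neutrophil and myeloid precursor markers (20 genes) came to 337 and 1233 CPM, against at most 11.3 CPM in the others, and their erythroid markers (15 genes) to 2393 and 7411 CPM, against 492 to 1172 CPM. Fish 1124 stood apart on the second component, with 14.4% of the variance, at -48.5, and its summed keratinocyte markers (9 genes) came to 281.7 CPM, against 10.2 to 60.5 CPM in all other muscle libraries. Whether these admixed transcripts took part in a result was not tested, unless a value beside the result bears on it. In bulk tissue, fewer cells of a type and less RNA per cell cannot be told apart.

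**Figure D1:**
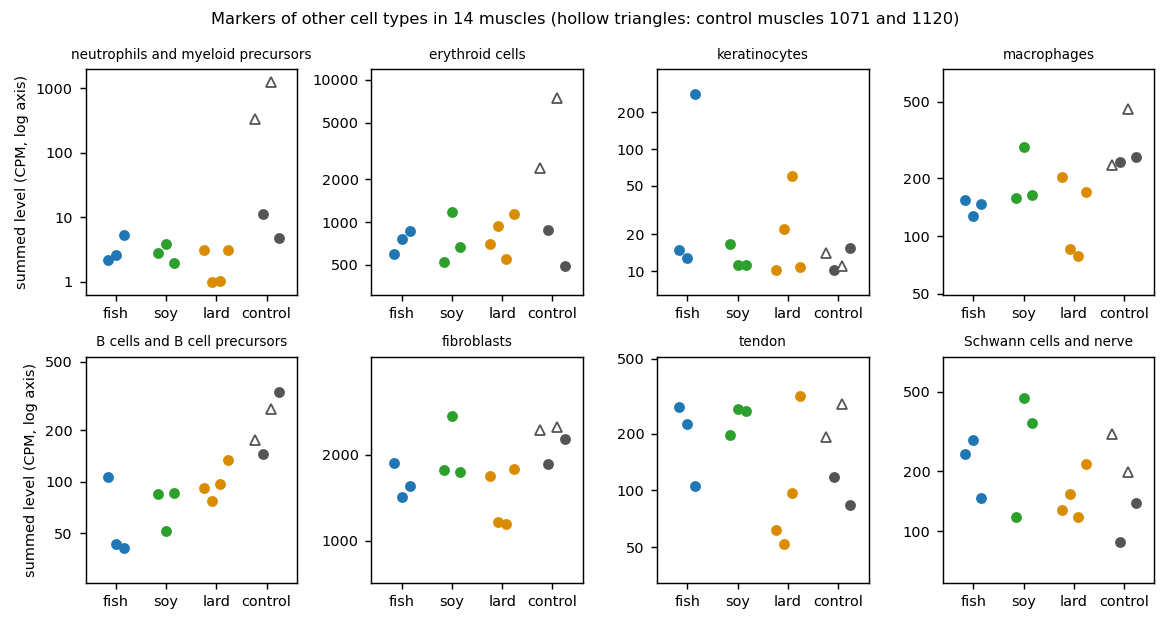
Summed levels of marker genes of other cell types in the 14 muscle libraries, in CPM on log axes, with 1 point per library and the diets in the order fish, soy, lard, control. Hollow triangles are control 1071 and control 1120, whose neutrophil sums of 337 and 1233 CPM lie far above the other libraries, and fish 1124 has the highest keratinocyte sum, 281.7 CPM.

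The muscle of the restricted fish group differed past the threshold, an adjusted p under 0.05, in 1 gene. Chia1, acidic mammalian chitinase, which cleaves chitin, fell. Its levels were 0.914, 0.535 and 0.449 CPM in fish 1067, 1123 and 1124, against 3.74, 3.29, 4.72 and 3.09 CPM in control 1071, 1095, 1120 and 1121. Every fish muscle lay below every control muscle. The means were 0.633 ± 0.247 CPM in fish muscle and 3.71 ± 0.725 CPM in control muscle (SD, n = 3 and n = 4). The log2 fold change was -2.52 ± 0.29 (SE), with an adjusted p of 0.00655 in edgeR's quasi-likelihood test over 13104 genes with Benjamini-Hochberg adjustment. The gene, ENSMUSG00000062778, lies at chr3:106113229-106132120 (GRCm38). Its levels rest on few reads, 15, 8 and 6 in the fish libraries, against 54, 47, 71 and 46 in the control libraries. Soy and lard muscles lay between the groups, at 1.58 to 2.26 CPM in soy and 2.0 to 2.66 CPM in lard. Without control 1071 and control 1120 the log2 fold change was -2.30 with an adjusted p of 0.0326. The call was lost without fish 1123 (adjusted p = 0.124), without fish 1124 (adjusted p = 0.078), with the 2 diets fitted alone (adjusted p = 0.144) and when library numbers entered as a block (adjusted p = 0.0729). Over all 23 alternatives the adjusted p ranged from 2.09e-08 to 0.144.

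No gene rose past the adjusted threshold, so that 0.0% of genes were called higher and 0.00763% lower. At an unadjusted p under 0.05 there were 2407 genes, 18.4% of those tested: 1098 higher in fish muscle (8.38%) and 1309 lower (9.99%). The count of calls depended on the tool: DESeq2's Wald test on the same counts called 168 genes higher (1.28%) and 227 lower (1.73%). It depended on single libraries as well: edgeR's test called 57 genes without fish 1067, 44 higher and 13 lower, and 69 without control 1095, 37 higher and 32 lower. It called 0 without fish 1123 and 0 without fish 1124, and 2 without control 1120. In 770 genes (5.88%) every fish muscle lay above every control muscle, and in 843 genes (6.43%) every fish muscle lay below. The median log2 fold change over all genes was -0.000464. No member of the gene lists described below passed the adjusted threshold in edgeR's test, so that their counts are at an unadjusted p and are read against these shares of all genes. Without control 1071 and control 1120, 3 genes fell past the threshold (0.0227%): Chia1, Igfn1 and Mest.

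Igfn1, an immunoglobulin and fibronectin domain protein of muscle, had 7.0, 7.42 and 2.47 CPM in fish muscle, against 20.9, 71.6, 47.9 and 304 CPM in control muscle. The groups did not overlap, and the control libraries differed widely among themselves. Its log2 fold change was -4.29 ± 0.82 with an adjusted p of 0.107, and -5.05 with an adjusted p of 0.0326 without control 1071 and control 1120. Soy muscle, at 2.55 to 7.01 CPM, and lard muscle, at 6.72 to 15.5 CPM, were also below every control muscle. Mest, an imprinted gene known to rise with fat tissue growth, had 2.38, 2.41 and 2.1 CPM in fish muscle, against 10.9, 8.74, 2.79 and 19.8 CPM in control muscle. Control 1120 lay close to the fish muscles and the other 3 controls well above them. The log2 fold change of Mest was -2.20 ± 0.48 (adjusted p = 0.119), and -2.64 (adjusted p = 0.0326) without control 1071 and control 1120. Mest shares exon sequence on the opposite strand with Copg2, and no source used here gives the strand setting of the counting.

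The other genes of smallest p are given as values, since none passed the threshold. Among those lower in fish muscle, Ccn5, a secreted matricellular protein of the Wnt pathway, had 2.25, 1.54 and 0.898 CPM in fish muscle, against 15.7, 5.6, 6.31 and 14.7 CPM in control muscle (log2 fold change -2.74 ± 0.46, adjusted p = 0.099). Ighg2c, an immunoglobulin heavy chain gene of plasma cells, had 0.974, 0.535 and 0.674 CPM in fish muscle, against 6.3, 3.99, 5.84 and 11.0 CPM in control muscle (-3.20 ± 0.56, adjusted p = 0.099). In both genes the groups did not overlap, and every soy and lard muscle was below every control muscle as well. Htra1, a secreted serine protease, had 13.3, 9.1 and 9.43 CPM in fish muscle, against 44.3, 19.4, 22.1 and 34.97 CPM in control muscle, with 53.3% of its reads unique. Itgb5, the beta-5 chain of a vitronectin receptor, had 76.7, 70.3 and 69.4 CPM in fish muscle, against 138, 109.7, 118 and 101 CPM in control muscle (-0.70 ± 0.13, adjusted p = 0.107). Again no fish muscle reached a control muscle in either gene.

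Among the genes of smallest p that were higher in fish muscle, Ccdc141, a coiled-coil protein, had 6.15, 11.2 and 17.2 CPM in fish muscle, against 1.73, 3.22, 1.99 and 4.63 CPM in control muscle (log2 fold change 1.99 ± 0.33, adjusted p = 0.099). Klhl33, a kelch-family protein, had 78.4, 71.7 and 102 CPM in fish muscle, against 32.0, 48.0, 34.8 and 45.3 CPM in control muscle (1.07 ± 0.19, adjusted p = 0.099). The groups were apart in both genes, and Klhl33 was above every control in all soy and lard muscles too. Gramd1b, which carries cholesterol from the plasma membrane to the endoplasmic reticulum, had 18.1, 25.4 and 30.1 CPM in fish muscle, against 8.79, 10.002, 12.2 and 12.6 CPM in control muscle. Pla2g4e, an enzyme that makes N-acylated phospholipids, had 44.9, 46.7 and 43.3 CPM in fish muscle, against 23.5, 32.5, 26.2 and 23.6 CPM in control muscle. Both had an adjusted p of 0.099 and no overlap between the groups. Trub1, a pseudouridine synthase, had 14.0, 16.5 and 17.3 CPM in fish muscle, against 10.3, 9.93, 10.2 and 9.93 CPM in control muscle. The 4 control values of Trub1 lay close together and below all fish values.

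**Figure D2:**
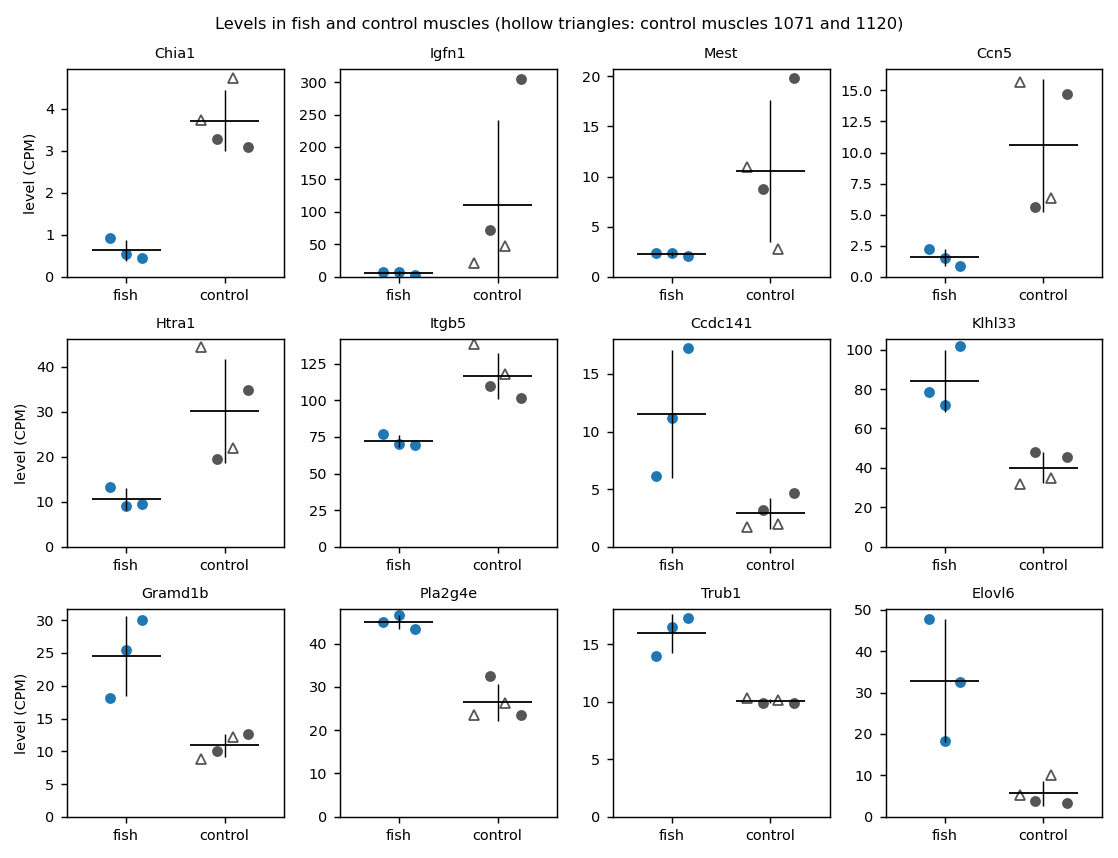
Levels in CPM of 12 genes in the fish muscles (left, blue) and control muscles (right, grey), with 1 point per library, a horizontal line at the group mean and a vertical line of 1 SD to each side, cut at 0. For Chia1 the 3 fish muscles lie at 0.449 to 0.914 CPM, all below the 4 control muscles at 3.09 to 4.72 CPM; hollow triangles are control 1071 and control 1120.

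Genes of the integrated stress response had high levels in 2 of the 3 fish muscles, and the third did not share them. No member passed the adjusted threshold. Of 24 members tested, 14 had an unadjusted p under 0.05 with a higher level in fish muscle and 0 with a lower level, where 8.38% and 9.99% of all genes did. The median log2 fold change of the members was 0.72. Without control 1071 and control 1120 it was 0.86, with 15 members higher and 0 lower, where 6.05% and 5.71% of all genes were higher and lower. In none of the 24 were the groups free of overlap, because fish 1067 lay within the range of the controls in 20 members, below it in 3 and above it in 1. Fish 1123 lay above every control in 15 members and fish 1124 in 20, where these libraries did so in 19.1% and 22.9% of all genes. DESeq2's Wald test called 7 members higher: Trib3, Asns, Psat1, Mthfd2, Sesn2, Slc7a11 and Slc7a5. Without fish 1067, edgeR's quasi-likelihood test called 7 members higher: Trib3, Asns, Psat1, Sesn2, Fgf21, Slc7a11 and Slc7a5. Without fish 1124, the adjusted p of these 7 was 0.435 to 0.451 and the log2 fold changes were smaller, at 1.89 for Trib3, 1.95 for Asns and 0.94 for Sesn2, against 3.52, 3.10 and 2.25 over all libraries. Without fish 1123 their adjusted p was 0.28 to 0.305.

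ATF4 binds, with a C/EBP partner, an 8-base element whose core is written here as TGATGNAA. Its letters were searched on both strands in the 300 bases around each start site (250 before and 50 from the start on) in RefSeq promoters of GRCm38.p6. Of the 24 members 21 had a promoter window, and 9 of these (42.9%) held the motif, against 1219 of 27025 genes (4.51%). The members were listed because the pathway is known to act on them, so that this share describes the list. The 250 bases before the start are shown for 4 members that held a match there, 3 of them with high levels in fish 1123 and fish 1124 and Chac1 with levels that overlapped. They run 5′ to 3′ on the strand of the gene, from chr6:7693210-7693459 (minus strand) for Asns, chr7:45615491-45615740 (minus) for Fgf21, chr3:50443614-50443863 (minus) for Slc7a11 and chr2:119350992-119351241 (plus) for Chac1. Capitals mark the match, read as TTGCATCA where it lies on the other strand.
Asns: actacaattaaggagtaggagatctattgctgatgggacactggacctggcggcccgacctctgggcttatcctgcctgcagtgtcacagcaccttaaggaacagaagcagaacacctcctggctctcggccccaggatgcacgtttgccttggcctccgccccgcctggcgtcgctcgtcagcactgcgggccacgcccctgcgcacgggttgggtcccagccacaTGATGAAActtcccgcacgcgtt
Fgf21: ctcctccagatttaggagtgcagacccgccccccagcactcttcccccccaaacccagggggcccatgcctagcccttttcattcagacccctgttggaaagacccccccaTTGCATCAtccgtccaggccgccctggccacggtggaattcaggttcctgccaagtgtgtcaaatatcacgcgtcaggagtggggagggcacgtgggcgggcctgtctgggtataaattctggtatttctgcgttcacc
Slc7a11: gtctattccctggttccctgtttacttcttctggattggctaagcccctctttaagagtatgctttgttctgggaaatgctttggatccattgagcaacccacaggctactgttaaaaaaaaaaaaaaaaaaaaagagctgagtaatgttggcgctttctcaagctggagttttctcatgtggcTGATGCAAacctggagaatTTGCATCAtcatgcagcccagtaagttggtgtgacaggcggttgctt
Chac1: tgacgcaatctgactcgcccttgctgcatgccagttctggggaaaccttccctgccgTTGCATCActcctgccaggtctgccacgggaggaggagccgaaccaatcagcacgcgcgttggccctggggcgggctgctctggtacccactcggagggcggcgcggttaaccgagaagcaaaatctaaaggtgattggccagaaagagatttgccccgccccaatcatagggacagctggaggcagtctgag
The first base of the match lies at -23 in Asns, at -139 in Fgf21, at -193 in Chac1 and at -66 and -47 in Slc7a11, counted from the start site. Trib3 held its match after the start, at position 15. Psat1, Mthfd2, Sesn2, Atf5 and Atf4 held none of these letters in their windows. A match says only that the letters are there.

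Among the enzymes of amino acid synthesis, Psat1, of the serine pathway, had 3.9, 32.9 and 70.6 CPM in fish 1067, 1123 and 1124, against 4.77, 3.01, 3.65 and 3.76 CPM in control muscle (log2 fold change 3.23 ± 0.71, adjusted p = 0.119). Asns, asparagine synthetase, had 2.68, 22.9 and 60.9 CPM in fish muscle, against 3.39, 1.4, 4.72 and 3.83 CPM in control muscle (3.10 ± 0.81, adjusted p = 0.131). Mthfd2, of the mitochondrial folate cycle, had 2.86, 137 and 281 CPM in fish muscle, against 4.77, 3.78, 8.7 and 3.09 CPM in control muscle (4.78 ± 1.27, adjusted p = 0.134). In all 3 genes fish 1067 was at the level of the controls and fish 1124 was the highest.

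Of the transporters, Slc7a11, which takes up cystine, had 0.365, 8.43 and 21.6 CPM in fish muscle, against 0.0692, 0.14, 0.266 and 0.403 CPM in control muscle (log2 fold change 5.46 ± 1.24, adjusted p = 0.119). Slc7a5, which takes up leucine and other large neutral amino acids, had 0.548, 7.16 and 26.7 CPM in fish muscle, against 0.623, 0.49, 1.66 and 1.68 CPM in control muscle (3.34 ± 0.88, adjusted p = 0.133). The pattern of both was that of the enzymes; Slc7a11 also stands in the list of NRF2 targets and Slc7a5 in that of branched-chain amino acid breakdown. Trib3, a pseudokinase that restrains AKT, had 0.792, 12.6 and 49.6 CPM in fish muscle, against 2.63, 1.26, 1.79 and 1.61 CPM in control muscle (3.52 ± 0.86, adjusted p = 0.129). Sesn2, a leucine sensor that restrains mTORC1, had 3.65, 12.1 and 43.5 CPM in fish muscle, against 6.43, 2.8, 3.12 and 4.16 CPM in control muscle (2.25 ± 0.59, adjusted p = 0.131). In both, fish 1067 was again not above the controls. Fgf21, a hormone that stressed muscle can secrete, had 0.122, 1.74 and 14.0 CPM in fish muscle, against 0.138, 0, 0 and 0 CPM in control muscle. These are 2, 26 and 187 reads in fish muscle, against 2, 0, 0 and 0 reads in control muscle. A count of 0 allows up to 3 reads, 0.199 to 0.21 CPM in these 3 control libraries, so that only fish 1123 and fish 1124 stood clear of it.

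The transcription factors of the pathway moved less. Atf4, which is mainly controlled at translation, had 157, 200.4 and 285 CPM in fish muscle, against 149.8, 144, 175 and 134 CPM in control muscle (log2 fold change 0.51 ± 0.19, adjusted p = 0.19). Atf5, a related factor, had 39.4, 141 and 311 CPM in fish muscle, against 72.8, 47.3, 111 and 34.2 CPM in control muscle (1.30 ± 0.54, adjusted p = 0.226). Fish 1123 and fish 1124 were above every control in both genes. Ddit3 (CHOP), which promotes cell death under lasting stress, had 10.9, 16.4 and 26.1 CPM in fish muscle, against 14.0, 10.5, 29.9 and 8.32 CPM in control muscle (0.18 ± 0.38, adjusted p = 0.82). Chac1, which breaks down glutathione, had 98.8, 83.2 and 187 CPM in fish muscle, against 39.0, 129, 55.5 and 142 CPM in control muscle (0.43 ± 0.46, adjusted p = 0.618). The groups overlapped in Ddit3 and in Chac1, and the sign of Chac1 turned without control 1071 and control 1120 (-0.14). Exons of Atf5 and Ddit3 overlap genes on the opposite strand (Il4i1 and Nup62, and Mars).

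The same pattern was present in 1 restricted muscle on another fat. Soy 1065 lay above every control in 16 of the 24 members, where it did so in 18.1% of all genes, and it was the highest of the 7 soy and lard muscles in 17. The mean log2(CPM + 1) of the 24 members was 3.61, 4.77 and 5.75 in fish 1067, 1123 and 1124. It was 4.62, 3.72 and 3.71 in soy muscle, 3.42 to 3.90 in lard muscle and 3.59 to 3.89 in control muscle. Fish 1067 and the other 2 soy muscles therefore lay at the control level on this measure. Fish 1123 and fish 1124 both lay above every soy and lard muscle in 14 members. The summed keratinocyte markers were 12.8 CPM in fish 1123 and 16.7 CPM in soy 1065, against 10.3 to 15.4 CPM in control muscle, while fish 1124 had 281.7 CPM.

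**Figure D3:**
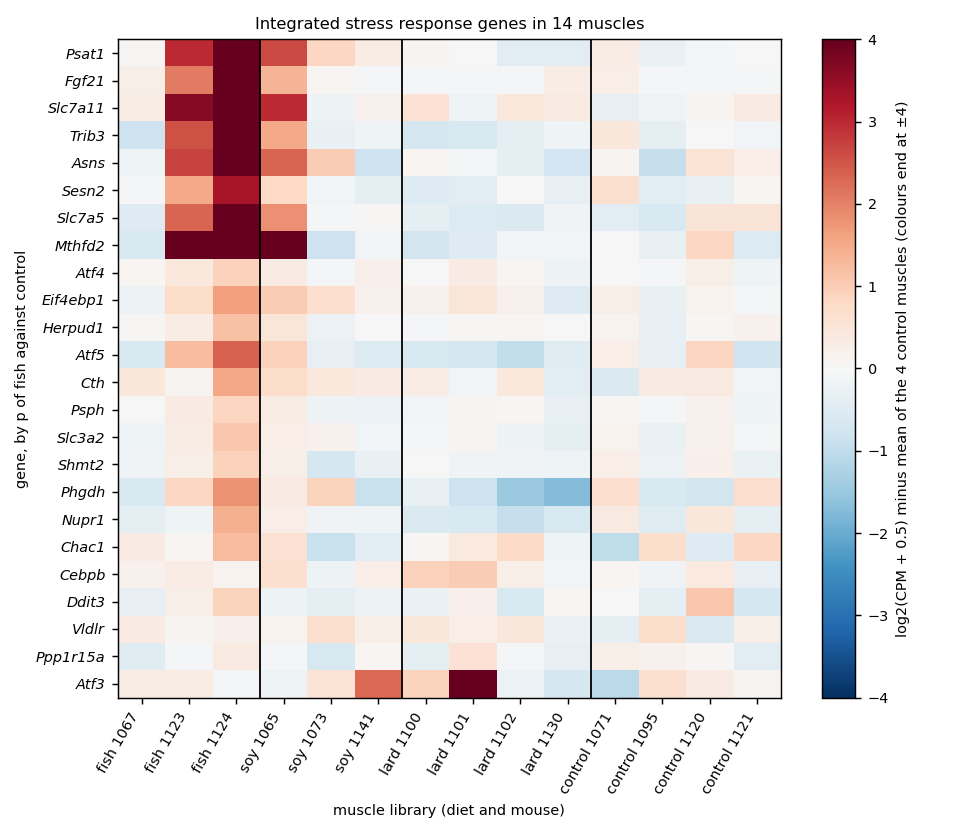
Colour map of the 24 tested integrated stress response genes (one line of cells per gene, ordered by p of fish against control) in the 14 muscle libraries, as log2(CPM + 0.5) minus the mean of the 4 control muscles, with colours ending at 4 above and below. Fish 1123 and fish 1124 are red for the upper genes, such as Psat1 (32.9 and 70.6 CPM), fish 1067 (3.9 CPM) is near the control muscles (3.01 to 4.77 CPM), and soy 1065 shares the red.

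A few genes of fatty acid synthesis had higher levels in every fish muscle than in any control muscle. Of 32 members of the list of lipid synthesis and desaturation, 4 had an unadjusted p under 0.05 with a higher level and 0 with a lower level. Of all genes, 8.38% and 9.99% did. In 5 members every fish muscle lay above every control, where 5.88% of all genes did so. Fish 1067 lay above every control in 18 members and below in 0, where it did so in 15.9% and 16.0% of all genes. Fish 1123 lay above in 7 and below in 6, where 19.1% and 20.3% of all genes did. Fish 1124 lay above in 9 and below in 5, where 22.9% and 21.7% did. The list thus departed most from the shares of all genes in fish 1067. The median log2 fold change was 0.09, and 0.19 without control 1071 and control 1120. In that fit 6 members were higher and 1 lower, where 6.05% and 5.71% of all genes were. Elovl6, which lengthens palmitate to stearate, had 47.9, 18.3 and 32.6 CPM in fish muscle, against 5.33, 3.78, 10.1 and 3.42 CPM in control muscle (2.54 ± 0.57, adjusted p = 0.119). Acaca, acetyl-CoA carboxylase, the committed step of fatty acid synthesis, had 101, 58.5 and 56.7 CPM in fish muscle, against 26.4, 30.1, 27.0 and 37.6 CPM in control muscle (1.25 ± 0.32, adjusted p = 0.131). Fasn, fatty acid synthase, had 395, 128 and 126 CPM in fish muscle, against 89.7, 60.4, 93.8 and 61.3 CPM in control muscle (1.505 ± 0.60, adjusted p = 0.212). No fish muscle overlapped a control muscle in these 3 genes, and fish 1067 was the highest. Fasn had 70.7 to 543 CPM in soy muscle, the lowest inside the control range, and 103 to 409 CPM in lard muscle, all above the controls. The summed adipocyte markers were 3277 to 4366 CPM in fish muscle and 3033 to 4147 CPM in control muscle, with overlap. Of the 11 adipocyte markers tested, only 1 had a positive log2 fold change. Their median log2 fold change was -0.51, and -0.74 without control 1071 and control 1120. Lep, leptin, a fat cell hormone, had 9.38, 1.94 and 5.17 CPM in fish muscle, against 55.1, 19.0, 5.25 and 78.3 CPM in control muscle (-2.83 ± 1.03, adjusted p = 0.183).

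Genes of fatty acid uptake and oxidation moved little as a list. Of 48 members, 1 had an unadjusted p under 0.05 with a higher level and 3 with a lower level, where 8.38% and 9.99% of all genes did. The median log2 fold change of the members was -0.04. Acads, short-chain acyl-CoA dehydrogenase, had 63.1, 50.8 and 43.3 CPM in fish muscle, against 77.6, 72.7, 104 and 61.6 CPM in control muscle (-0.59 ± 0.18, adjusted p = 0.149). Ucp2, a mitochondrial carrier, had 11.8, 15.0 and 12.2 CPM in fish muscle, against 28.5, 15.7, 69.8 and 19.3 CPM in control muscle (-1.36 ± 0.44, adjusted p = 0.162). Its highest values were in control 1071 and control 1120, and without them its log2 fold change was -0.43. Exons of Ucp2 overlap Dnajb13 on the opposite strand. Outside this list, Acox2, a peroxisomal oxidase of branched fatty acids and bile acid intermediates, had 0.67, 2.07 and 6.59 CPM in fish muscle, against 0.277, 0.35, 0.398 and 0.47 CPM in control muscle (3.02 ± 0.68, adjusted p = 0.119). Every fish muscle was above every control in Acox2, and the order of the fish libraries was that of the stress response genes.

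In glucose metabolism the members of smallest p were Pdp1 and Pfkfb4. Of 39 members of the glucose uptake, glycolysis and glycogen list, 6 had an unadjusted p under 0.05 with a higher level and 2 with a lower level. Of all genes, 8.38% and 9.99% did. The median log2 fold change of the members was -0.02, and 0.05 without control 1071 and control 1120. Pdp1, the phosphatase that activates pyruvate dehydrogenase, had 124, 146 and 169 CPM in fish muscle, against 74.3, 94.1, 75.8 and 74.7 CPM in control muscle (0.87 ± 0.19, adjusted p = 0.119). Pfkfb4, which sets the level of a glycolytic activator, had 75.1, 93.9 and 109 CPM in fish muscle, against 59.8, 48.5, 41.6 and 71.4 CPM in control muscle (0.74 ± 0.22, adjusted p = 0.149). Both were higher in every fish muscle than in any control muscle. Pdk4, the kinase that inactivates pyruvate dehydrogenase and is known to rise on fasting, had 484, 503 and 419 CPM in fish muscle, against 309, 1014, 604 and 975 CPM in control muscle (-0.63 ± 0.46, adjusted p = 0.461). Only control 1071 lay below the fish values of Pdk4, and the other controls lay above them. Over the alternative settings its log2 fold change ranged from -1.09 to -0.42.

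Branched-chain amino acid breakdown had the largest share of members in which the groups did not overlap among the metabolic lists described here, 8 of 24 with all fish muscles above all controls, where 5.88% of all genes did so. The same number, 8, had an unadjusted p under 0.05 with a higher level and 0 with a lower level, where 8.38% and 9.99% of all genes did. The median log2 fold change of the members was 0.17. Without control 1071 and control 1120 it was 0.25, with 13 higher and 0 lower at an unadjusted p under 0.05. In that fit 6.05% of all genes were higher and 5.71% lower. Dbt, the core subunit of the branched-chain ketoacid dehydrogenase, had 36.6, 33.4 and 38.9 CPM in fish muscle, against 20.3, 23.8, 28.8 and 24.4 CPM in control muscle (0.58 ± 0.14, adjusted p = 0.131). Aldh6a1, of the valine branch, had 229, 226 and 202 CPM in fish muscle, against 103, 162, 140.5 and 147 CPM in control muscle (0.67 ± 0.14, adjusted p = 0.119). Mccc1, of the leucine branch, had 48.9, 48.0 and 49.0 CPM in fish muscle, against 36.1, 41.5, 38.3 and 40.3 CPM in control muscle (0.32 ± 0.10, adjusted p = 0.149). The fish muscles were alike in these 3 genes, and each lay above the controls. Of the reads of Aldh6a1, 46.3% were unique, and its exons overlap Bbof1 on the opposite strand. Klf15, a glucocorticoid-induced factor that drives this pathway in muscle, had 48.4, 46.8 and 49.5 CPM in fish muscle, against 25.3, 33.2, 43.4 and 39.1 CPM in control muscle (0.45 ± 0.18, adjusted p = 0.215). The fish minus soy and lard median of the list was 0.01, and soy and lard minus control gave medians of 0.16 and 0.10 with the same control libraries.

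**Figure D4:**
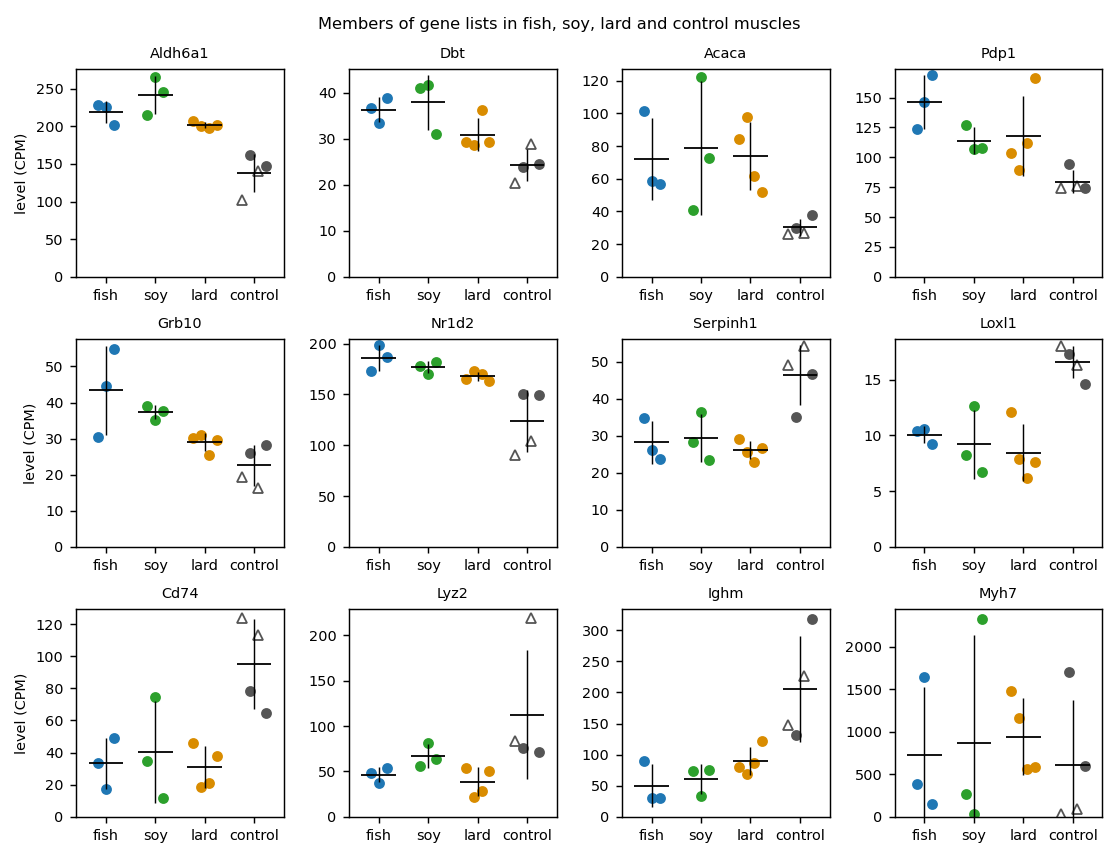
Levels in CPM of 12 members of the gene lists in the 14 muscle libraries, with the diets in the order fish, soy, lard, control, 1 point per library, a horizontal line at the group mean and a vertical line of 1 SD to each side, cut at 0. For Dbt every fish muscle (33.4 to 38.9 CPM) lies above every control (20.3 to 28.8 CPM), while for Myh7 the libraries of each diet are widely spread; hollow triangles are control 1071 and control 1120.

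Genes of atrophy and glucocorticoid response were more often higher in fish muscle, at an unadjusted p, than genes at large. Of 37 members, 13 had an unadjusted p under 0.05 with a higher level and 3 with a lower level. Of all genes, 8.38% and 9.99% did. In 8 members all fish muscles lay above all controls, where 5.88% of all genes did so. The median log2 fold change of the members was 0.30, and 0.10 without control 1071 and control 1120. In that fit 7 members were higher and 3 lower at an unadjusted p under 0.05, where 6.05% and 5.71% of all genes were. Ddit4 (REDD1), a glucocorticoid-induced inhibitor of mTORC1, had 22.3, 69.7 and 64.2 CPM in fish muscle, against 11.8, 22.0, 19.1 and 18.4 CPM in control muscle (1.54 ± 0.41, adjusted p = 0.133). Ctsl, a lysosomal protease, had 110.4, 167 and 333 CPM in fish muscle, against 79.2, 97.6, 105 and 103 CPM in control muscle (1.08 ± 0.26, adjusted p = 0.128). Both were above every control in every fish muscle. The ubiquitin ligases by which muscle atrophy is usually followed did not share this. Fbxo32 (atrogin-1) had 327, 322 and 304 CPM in fish muscle, against 331, 376, 245 and 415 CPM in control muscle (-0.10 ± 0.23, adjusted p = 0.826). Trim63 (MuRF1) had 211, 162 and 193 CPM in fish muscle, against 200.4, 202, 136 and 245 CPM in control muscle (-0.06 ± 0.25, adjusted p = 0.916). The groups overlapped in both genes, in Fbxo32 through control 1120 alone, with every fish muscle below the other controls. Over the alternative settings the log2 fold change of Fbxo32 ranged from -0.32 to 0.0019. The medians of the list were 0.52 in soy and 0.36 in lard minus the same controls, and -0.15 in fish minus the mean of soy and lard.

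Of 40 members of growth hormone, IGF and insulin signalling, 9 had an unadjusted p under 0.05 with a higher level and 3 with a lower level. Of all genes, 8.38% and 9.99% did. The median log2 fold change of the members was 0.24. Their counts were 5 and 2 and their median -0.0052 when control 1071 and control 1120 were left out. In that fit 6.05% of all genes were higher and 5.71% lower. Grb10, an adaptor that inhibits the insulin and IGF-1 receptors, had 30.5, 44.6 and 54.9 CPM in fish muscle, against 19.4, 26.1, 16.4 and 28.3 CPM in control muscle (0.94 ± 0.20, adjusted p = 0.119). All fish muscles were above all controls. Igf1, the growth factor, had 22.5, 12.2 and 13.9 CPM in fish muscle, against 19.9, 13.5, 13.9 and 19.6 CPM in control muscle (-0.04 ± 0.28, adjusted p = 0.944), and the groups overlapped.

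The clock list depended on control 1071 and control 1120. Of 19 clock members, 6 had an unadjusted p under 0.05 with a higher level and 0 with a lower level. Of all genes, 8.38% and 9.99% did. The median log2 fold change of the members was 0.22. Without control 1071 and control 1120 it was 0.06, with 3 members higher and 2 lower, where 6.05% and 5.71% of all genes were. Nr1d2, a nuclear receptor that represses Bmal1, had 173, 199 and 187 CPM in fish muscle, against 90.7, 151, 105 and 149 CPM in control muscle (0.59 ± 0.16, adjusted p = 0.141). Per1 had 133, 155 and 108 CPM in fish muscle, against 39.2, 102, 53.9 and 97.99 CPM in control muscle (0.85 ± 0.28, adjusted p = 0.162). Per3 had 37.9, 29.8 and 36.8 CPM in fish muscle, against 10.2, 17.8, 10.9 and 30.0 CPM in control muscle (1.02 ± 0.32, adjusted p = 0.156), with 43.4% of its reads unique. Control 1071 and control 1120 were the lowest libraries in these 3 genes, and without them the log2 fold changes were 0.31, 0.40 and 0.54. Arntl (Bmal1), the activator of the Per genes, had 4.51, 4.35 and 4.94 CPM in fish muscle, against 5.88, 10.002, 3.65 and 7.65 CPM in control muscle (-0.56 ± 0.32, adjusted p = 0.347).

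Genes of the neuromuscular junction and of denervation were among the lists in which the median stayed near its value without control 1071 and control 1120, at 0.29 and 0.26. Of 21 members, 6 had an unadjusted p under 0.05 with a higher level and 0 with a lower level in each of these fits. Of all genes, 8.38% and 9.99% did, and 6.05% and 5.71% without control 1071 and control 1120. Chrna1, the alpha subunit of the muscle acetylcholine receptor, had 16.7, 21.9 and 34.6 CPM in fish muscle, against 14.1, 15.0, 14.0 and 12.3 CPM in control muscle (0.81 ± 0.23, adjusted p = 0.144). Ncam1, an adhesion molecule of denervated fibres, satellite cells and nerve, had 4.57, 9.1 and 8.31 CPM in fish muscle, against 4.01, 4.27, 3.79 and 3.49 CPM in control muscle (0.91 ± 0.24, adjusted p = 0.134). Both were above every control in every fish muscle. The summed Schwann cell and nerve markers were 147 to 287 CPM in fish muscle and 88.4 to 307 CPM in control muscle, with 1 of 12 (Nefl) at 0. Control 1095 and control 1121, at 88.4 and 138 CPM, lay below every fish sum. The median log2 fold change of these markers was 0.27, and 1.11 without control 1071 and control 1120. The part of nerve content in the neuromuscular list was not tested. Of 22 genes of myogenesis and satellite cells, 1 had an unadjusted p under 0.05 with a higher level and 1 with a lower level. Met, the hepatocyte growth factor receptor of satellite cells, had 26.2, 23.3 and 28.0 CPM in fish muscle, against 12.6, 20.7, 9.36 and 16.7 CPM in control muscle (0.80 ± 0.20, adjusted p = 0.131), with no overlap.

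Collagens and other matrix genes were lower in fish muscle as a list. Of 39 members, 16 had an unadjusted p under 0.05 with a lower level and 0 with a higher level, where 9.99% and 8.38% of all genes did. In 7 of the 39 every fish muscle lay below every control muscle, where 6.43% of all genes did so. The median log2 fold change was -0.55, and -0.53 without control 1071 and control 1120. Fish 1067 lay below every control in 7 members, fish 1123 in 20 and fish 1124 in 26, where 16.0%, 20.3% and 21.7% of all genes did, so that fish 1067 lay near the share of all genes. P4ha2, a collagen prolyl hydroxylase subunit, had 17.5, 17.1 and 13.4 CPM in fish muscle, against 23.9, 23.8, 27.6 and 26.2 CPM in control muscle (-0.66 ± 0.16, adjusted p = 0.125). Serpinh1 (HSP47), the collagen chaperone, had 34.9, 26.2 and 23.7 CPM in fish muscle, against 49.3, 35.2, 54.4 and 46.6 CPM in control muscle (-0.71 ± 0.18, adjusted p = 0.131). Loxl1, which cross-links elastin, had 10.4, 10.6 and 9.21 CPM in fish muscle, against 18.0, 17.3, 16.3 and 14.6 CPM in control muscle (-0.72 ± 0.23, adjusted p = 0.161). No fish muscle reached a control muscle in these 3 genes.

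Of the collagen chains, Col6a2, of the microfibrillar collagen around fibres, had 42.8, 25.8 and 28.4 CPM in fish muscle, against 66.3, 54.3, 50.9 and 55.2 CPM in control muscle (-0.81 ± 0.33, adjusted p = 0.221). Col4a1, of the basement membrane, had 74.3, 60.0 and 54.0 CPM in fish muscle, against 105, 116, 59.0 and 115 CPM in control muscle (-0.66 ± 0.26, adjusted p = 0.209). Col3a1, a fibrillar collagen of the connective tissue, had 118, 48.4 and 81.0 CPM in fish muscle, against 129.6, 208, 118 and 151 CPM in control muscle (-0.88 ± 0.47, adjusted p = 0.332). The groups were apart in Col6a2, overlapped in Col4a1 through control 1120, and met at 118 CPM in Col3a1. The summed fibroblast markers (8 genes, none at 0) were 1424 to 1872 CPM in fish muscle and 1856 to 2491 CPM in control muscle, with overlap. These markers include the collagens Col1a1 and Col3a1, so that a fall shared with the matrix genes is partly built in. Their median log2 fold change was -0.46, and -0.21 without control 1071 and control 1120. The part of fibroblasts in the matrix result was not tested. Soy and lard minus the same controls gave list medians of -0.48 and -0.69, and fish minus soy and lard a median of 0.05, with 1 member at an unadjusted p under 0.05.

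Antigen presentation by MHC class II had lower levels in the fish muscles. Of 7 members tested, 6 had an unadjusted p under 0.05 with a lower level, where 9.99% of all genes did. In 5 members every fish muscle lay below every control muscle, where 6.43% of all genes did so. The median log2 fold change was -1.20; without control 1071 and control 1120 it was -0.99 with 0 members at an unadjusted p under 0.05. No member passed in DESeq2's test. Cd74, the invariant chain that guides MHC class II, had 33.3, 17.5 and 49.1 CPM in fish muscle, against 123, 78.3, 113 and 64.6 CPM in control muscle (-1.51 ± 0.52, adjusted p = 0.174). H2-Ab1, a beta chain, had 11.4, 7.09 and 19.9 CPM in fish muscle, against 35.6, 29.2, 35.5 and 21.5 CPM in control muscle (-1.25 ± 0.50, adjusted p = 0.215). H2-Aa, the matching alpha chain, had 18.1, 8.29 and 26.4 CPM in fish muscle, against 36.2, 41.5, 38.2 and 31.1 CPM in control muscle (-1.06 ± 0.49, adjusted p = 0.27). The groups were apart in all 3 genes. List medians against the same controls were -0.76 in soy and -1.43 in lard, and fish minus soy and lard gave -0.02.

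Macrophage markers moved with the MHC class II genes. Their sum over 12 genes, none at 0, was 127 to 155 CPM in fish muscle and 234 to 459.6 CPM in control muscle. Of the 12, 8 had an unadjusted p under 0.05 with a lower level, where 9.99% of all genes did. The median log2 fold change of the markers was -0.998. Left with control 1095 and control 1121 only, 2 of the 12 had such a p, where 5.71% of all genes did. The median of the markers was then -0.78. Lyz2, lysozyme of macrophages and neutrophils, had 48.1, 37.5 and 53.8 CPM in fish muscle, against 83.7, 75.3, 219 and 71.8 CPM in control muscle (-1.27 ± 0.40, adjusted p = 0.156). Mpeg1, a pore-forming protein of macrophages, had 3.35, 2.34 and 2.92 CPM in fish muscle, against 8.65, 4.2, 19.4 and 4.36 CPM in control muscle (-1.67 ± 0.53, adjusted p = 0.158). The fish muscles were below every control in both, and control 1120 was the highest. The B cell list summed to 41.2 to 106 CPM in fish muscle and 144 to 333 CPM in control muscle, with 3 of its 15 genes (Vpreb2, Rag1 and Rag2) at 0. Ighm, the immunoglobulin M heavy chain, had 89.6, 30.0 and 30.4 CPM in fish muscle, against 148, 132, 226 and 319 CPM in control muscle (-2.04 ± 0.44, adjusted p = 0.119). The B cell sums of control 1095 and control 1121, 144 and 333 CPM, were above all fish sums, while their neutrophil sums were 11.3 and 4.70 CPM.

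Of 21 genes of inflammation and cytokines, 1 had an unadjusted p under 0.05 with a higher level and 5 with a lower level, and 0 and 3 did without control 1071 and control 1120. The shares of all genes were 8.38% and 9.99%, and 6.05% and 5.71% without these controls. Outside this list, Mmp9, a gelatinase counted here among the neutrophil markers, had 1.4, 0.602 and 2.77 CPM in fish muscle, against 15.2, 9.93, 39.7 and 3.56 CPM in control muscle (-3.44 ± 0.83, adjusted p = 0.125). Without control 1071 and control 1120 the log2 fold change of Mmp9 was -2.09. No fish muscle reached a control muscle, and control 1120, with the highest neutrophil sum, had the highest value. Of 24 interferon-stimulated genes, 0 were higher and 2 lower at an unadjusted p under 0.05, with a median of -0.31, and -0.16 without control 1071 and control 1120.

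**Figure D5:**
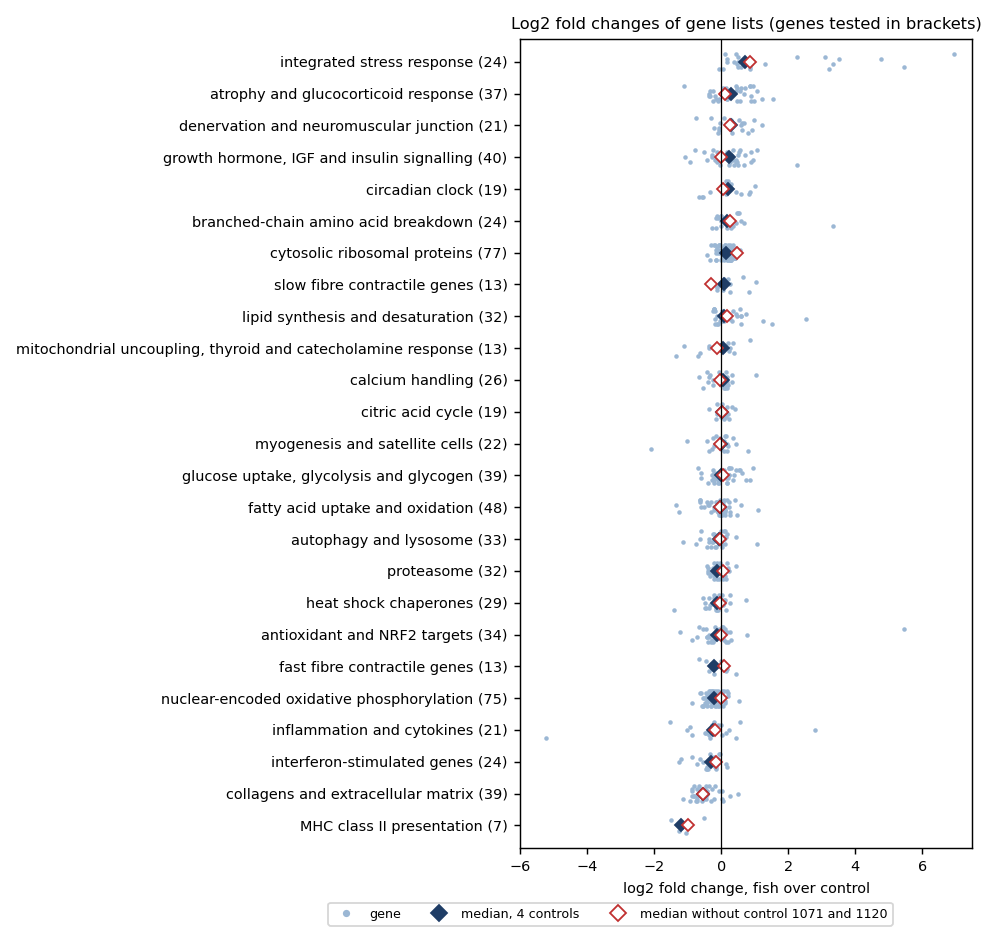
Log2 fold changes of fish over control muscle for the tested members of each pathway list (points), with the list median over all 4 controls (filled diamonds) and without control 1071 and control 1120 (hollow diamonds). Among these pathway lists the integrated stress response has the highest median (0.72) and MHC class II presentation the lowest (-1.20), where the median over all genes is -0.000464.

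Fibre type genes did not separate the groups. None of the 13 fast and 13 slow contractile genes had an unadjusted p under 0.05, with medians of -0.22 and 0.09, and of 0.08 and -0.30 without control 1071 and control 1120. Myh7, the slow myosin heavy chain, had 385, 1645 and 151 CPM in fish muscle, against 29.8, 1700.3, 93.8 and 592 CPM in control muscle. It varied among the libraries of each group by far more than between the groups (log2 fold change 0.27 ± 1.25, adjusted p = 0.922), and its sign turned without control 1071 and control 1120 (-0.65). Mylpf, the fast regulatory light chain, had 9854, 9349 and 11292 CPM in fish muscle, against 7879.7, 7081, 7372 and 7544 CPM in control muscle (0.44 ± 0.22, adjusted p = 0.30). Its fish values lay above its control values.

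The large sets of the respiratory chain and the ribosome depended on control 1071 and control 1120. Of 75 nuclear-encoded oxidative phosphorylation genes, 15 had an unadjusted p under 0.05 with a lower level and 0 with a higher level, at a median of -0.22. Of all genes, 9.99% and 8.38% did. Without these 2 controls the median of the 75 genes was -0.01, with 1 gene higher and 0 lower. Of 77 cytosolic ribosomal proteins, 0 had an unadjusted p under 0.05, at a median of 0.13. Without these controls 42 were higher and 0 lower, at a median of 0.47. In that fit 6.05% of all genes were higher and 5.71% lower. The mean log2(CPM + 1) of the ribosomal genes was 7.22, 7.53 and 8.11 in fish 1067, 1123 and 1124, against 7.64, 7.17, 8.01 and 7.18 in control 1071, 1095, 1120 and 1121. Control 1071 and control 1120 thus lay among the fish values and the other controls at the lower end. Many ribosomal genes share reads with pseudogenes, and of the reads of Rpl12 only 1.45% were unique, so that their levels are uncertain. Transcripts of very different length also differed in these 2 libraries: Ttn, the giant sarcomere protein with a very long transcript, had 10923, 13725 and 12601 CPM in fish muscle, against 6027, 11889, 3798 and 10443 CPM in control muscle. Atp5e, an ATP synthase subunit with a short transcript, had 314, 292 and 288 CPM in fish muscle, against 854, 317, 714 and 302 CPM in control muscle. Control 1071 and control 1120 were the lowest in Ttn and the highest in Atp5e; the part of RNA quality in these lists was not tested.

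Citric acid cycle (19 genes), calcium handling (26) and mitochondrial uncoupling (13) had medians of 0.03, 0.04 and 0.05 and 1, 2 and 2 members at an unadjusted p under 0.05. The protein turnover and stress defence lists are set against 8.38% of all genes higher and 9.99% lower at an unadjusted p under 0.05. Without control 1071 and control 1120 these shares were 6.05% and 5.71%. In 6 of the 33 autophagy and lysosome genes every fish muscle lay below every control, and in 1 above. Of all genes, 6.43% and 5.88% did so. Of 32 proteasome genes, 1 was higher and 1 lower at an unadjusted p under 0.05, the lower being Psmd8, a lid subunit, with 161, 169.7 and 174 CPM in fish muscle, against 249.4, 214, 219 and 226 CPM in control muscle. Of 33 autophagy and lysosome genes 2 were higher and 5 lower, against 2 and 2 without control 1071 and control 1120, among the lower Hexa, a lysosomal hexosaminidase, with 34.1, 34.4 and 41.1 CPM in fish muscle, against 71.7, 42.3, 64.4 and 45.3 CPM in control muscle. Of 34 antioxidant and NRF2 targets 2 were higher and 7 lower, against 3 and 1 without control 1071 and control 1120, among the lower Sod3, extracellular superoxide dismutase, with 12.3, 7.02 and 7.26 CPM in fish muscle, against 23.9, 16.8, 17.1 and 24.97 CPM in control muscle. In each of these 3 genes the fish muscles lay below the controls, and the adjusted p was 0.16 for Psmd8, 0.142 for Hexa and 0.149 for Sod3. Of 29 heat shock chaperones 1 was higher and 3 lower, against 3 and 1 without control 1071 and control 1120, and the higher over all libraries was Hspa9, the mitochondrial HSP70. Hspa9 had 462, 738 and 1019 CPM in fish muscle, against 408, 474, 479 and 412 CPM in control muscle (0.74 ± 0.23, adjusted p = 0.151), with fish 1067 inside the control range.

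Set against the other restricted diets at equal intake, fish muscle differed past the threshold in 0 of 13104 genes (0.0%) in edgeR's quasi-likelihood test, and 435 genes (3.32%) had an unadjusted p under 0.05. DESeq2's Wald test called 4 genes, 3 higher and 1 lower, and edgeR's test without fish 1067 called 18, 17 higher and 1 lower. The gene of smallest p was again Chia1, with 0.914, 0.535 and 0.449 CPM in fish muscle, against 1.88, 2.26 and 1.58 CPM in soy and 2.24, 2.66, 2.33 and 2.0 CPM in lard muscle. Every fish value lay below every soy and lard value (log2 difference -1.70 ± 0.27, adjusted p = 0.282). Of the integrated stress response list 16 of 24 members had an unadjusted p under 0.05, at a median of 0.59 for fish minus soy and lard, and -0.14 and 0.20 for lard and soy minus control. Trib3 had 6.05, 1.33 and 1.51 CPM in soy muscle and 0.931 to 1.52 CPM in lard muscle, and its difference from the mean of soy and lard was 3.50 ± 0.71 (adjusted p = 0.65). Arhgap33, a protein of the sorting nexin family, had 1.04, 3.55 and 17.5 CPM in fish muscle, against 2.15, 1.04 and 0.904 CPM in soy, 0.745, 0.266, 0.504 and 0.798 CPM in lard and 0.761, 0.56, 1.86 and 0.537 CPM in control muscle. Its difference from soy and lard was 3.02 ± 0.62 (adjusted p = 0.65), and its order over the fish muscles was that of Trib3. Acox2 and Fgf21 completed the 5 genes of smallest p, both with an adjusted p of 0.65.

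In fish minus soy and lard, 8 of 37 members of the atrophy and glucocorticoid list had an unadjusted p under 0.05, where 3.32% of all genes did, at a median of -0.15. The counts were 3 of 21 for the neuromuscular junction and denervation, 4 of 39 for glucose metabolism, 4 of 40 for IGF and insulin signalling and 1 of 24 for branched-chain amino acid breakdown. Fatty acid synthesis had medians of 0.09, 0.17 and 0.25 in fish, soy and lard minus control, and -0.10 in fish minus soy and lard, where 0 of 32 members had an unadjusted p under 0.05. Elovl6 had 47.9, 18.3 and 32.6 CPM in fish muscle, against 7.46, 40.4 and 18.7 CPM in soy and 26.6, 50.6, 23.5 and 12.5 CPM in lard muscle (difference 0.39 ± 0.48, adjusted p = 1). Ighm had 89.6, 30.0 and 30.4 CPM in fish muscle, against 73.1, 32.6 and 75.0 CPM in soy and 80.7, 68.6, 86.5 and 122 CPM in lard muscle (-0.55 ± 0.39). The diets overlapped in both genes. Taken one by one, soy minus control gave 2285 genes (17.4%) and lard minus control 2263 genes (17.3%) at an unadjusted p under 0.05 and 0 past the adjusted threshold, against the same 4 controls as the 2407 genes (18.4%) of fish minus control. Fish minus soy gave 288 such genes (2.2%) and fish minus lard 541 (4.13%), with 0 past the adjusted threshold in each.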

How the data were processed

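RNA-seq of whole hindlimb muscle was deposited as counts of exon reads, unique exon reads and gene reads per gene, and as RPKM computed by the authors, per the file headers; levels here use the deposited counts only. The submitters' processing notes name FastQC and GRCm38; no source used here gives the aligner, counter, annotation or strand setting. Of 38124 genes, 36345 had a symbol, and 15164 had no exon length or exon reads. In edgeR 4.0.16 (R 4.3.3) the 14 muscle libraries of 4 diets were filtered (filterByExpr, minimum count 10), TMM-scaled and fitted together by quasi-likelihood, leaving 13104 genes; the threshold was a Benjamini-Hochberg adjusted p of 0.05. An SE is the log2 fold change over the square root of F. DESeq2 1.42.0 and limma 3.58.1 were alternatives. Each library is a separate mouse, and no 2 libraries of a group agreed within counting noise (chi-square per degree of freedom at least 21.8). Floors for counts of 0 cover counting error only.

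The fit was also run on simulated counts for fish against control (12980 genes). It recovered 40 of 50 genes raised 2-fold and 30 of 50 lowered 2-fold. It recovered 50 of 50 raised 4-fold and 49 of 50 lowered 4-fold, with 9 false among 178 calls. These shares describe the simulated counts and are not read as the power in the measured libraries. Recovery with libraries that stand apart, as control 1071, control 1120 and fish 1124 did, was not tested. Nor was it tested for genes of counts as low as those of Chia1.

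Comparison, gene lists and tests were chosen with earlier results of these data known. The rule for named genes took the largest changes past the threshold at a mean of at least 5 CPM, the 5 genes of smallest p in a direction with fewer than 5 past it, the 2 or 3 members of smallest p of each list, and the 5 of smallest p in fish against soy and lard. Chosen outside it, after their values were seen, were Igfn1, Mest, Asns, Mthfd2, Slc7a5, Atf5, Atf4, Chac1, Ddit3, Fasn, Pdk4, Klf15, Mccc1, Fbxo32, Trim63, Igf1, Per1, Arntl, Col3a1, Col6a2, Col4a1, Loxl1, H2-Ab1, H2-Aa, Myh7, Ttn, Atp5e and the genes of the closing observations.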

Additional observations from a re-analysis of the deposited data

Results flagged for a closer look

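In 8 of 101 sets of 4 control values tested, 1 library lay far from the other 3 by Dixon's criterion (gap over range above 0.829). Chance gives about 1 in 20 for independent, normally distributed values, which these levels and sums are not, so that the count is not read against it. In Fgf21 and Krt15 the other 3 controls were at 0, where the ratio is 1 whatever the number of reads. Control 1120 was high in Lyz2, with 219 CPM against 71.8 to 83.7 CPM in the other 3 controls, in the summed macrophage markers, with 459.6 CPM against 234 to 256 CPM, in Arhgap33, with 1.86 CPM against 0.537 to 0.761 CPM, and in Krt10, with 3.19 CPM against 1.47 to 1.73 CPM. Control 1071 was high in the summed skeletal muscle markers, with 312283 CPM against 162176 to 186354 CPM, and held the only Fgf21 reads of the controls, at 0.138 CPM. Control 1095 was high in Pdp1, with 94.1 CPM against 74.3 to 75.8 CPM. Control 1121 was the only control with a read of Krt15, at 0.134 CPM.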

How the results depend on the processing

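The count of genes past the threshold in fish against control, 1 over all libraries, was 3 without control 1071 and control 1120, 395 by DESeq2's Wald test, 13 by limma-voom with library quality weights, and 0 at a mean of at least 5 CPM and with the 2 diets fitted alone. Chia1 lies below a mean of 5 CPM and was not tested under that filter, so that this 0 is no loss of its call. Leaving out each library in turn gave 0 to 69 genes. It was 1 with DESeq2's size factors, limma-voom, no filter on low counts and unique exon reads. Fish against the mean of soy and lard, 0 over all libraries, gave 4 by DESeq2 and 0 to 18 with a library left out. With the library number as a replicate block the count in fish against control was 0; deviations of libraries with the same number correlated at 0.0561, 0.231 and 0.00149, so that the numbers were not taken as pairs. Log2 fold changes that turned sign were those of Chac1 (-0.14 without control 1071 and control 1120, -0.25 with quality weights), Myh7 (-0.65 without these controls), Trim63 (0.11 with the block) and, over the fits with 1 library left out, Ddit3 (-0.18 to 0.70), Fbxo32 (-0.23 to 0.0019), Trim63 (-0.20 to 0.069), Igf1 (-0.35 to 0.13) and Myh7 (-1.17 to 1.61). The cause was not tested. Of 84 named genes, 5 turned sign with a library left out and 3 under another setting. Low counts limit Chia1, Fgf21 and Slc7a11, and 3 libraries on 1 side limit every call.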

Other observations

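Among the genes that passed edgeR's threshold without fish 1067 were further genes of amino acid synthesis and transport outside the lists, chosen after their values were seen. Aldh18a1, the entry enzyme of proline synthesis, had 3.17, 30.8 and 64.9 CPM in fish 1067, 1123 and 1124, against 5.19, 3.64, 5.05 and 3.02 CPM in control muscle. Pycr1, its last step in mitochondria, had 3.41, 19.2 and 43.2 CPM in fish muscle, against 3.94, 2.8, 2.19 and 2.95 CPM in control muscle. Aldh1l2, of the mitochondrial folate cycle, had 7.31, 26.4 and 54.5 CPM in fish muscle, against 4.08, 4.27, 5.11 and 4.09 CPM in control muscle. As in the stress response genes, fish 1123 and fish 1124 were high, and soy 1065 had 25.6, 16.9 and 25.9 CPM of these genes. Slc7a1, which takes up arginine and lysine, had 4.14, 15.9 and 35.7 CPM in fish muscle, against 3.25, 5.46, 3.45 and 4.36 CPM in control muscle. Xpot, which exports tRNAs from the nucleus, had 29.1, 61.1 and 100.4 CPM in fish muscle, against 23.9, 33.5, 27.1 and 32.8 CPM in control muscle. Stc2, a secreted glycoprotein, had 4.2, 9.3 and 11.8 CPM in fish muscle, against 2.84, 2.1, 3.45 and 2.15 CPM in control muscle, and was above every control in all fish muscles. With all libraries their adjusted p was 0.112 (Stc2) to 0.142 (Aldh18a1), and without fish 1067 it was 0.0141 (Stc2) to 0.0406 (Aldh18a1), a fit from which the library without this pattern was left out.

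In the same fit Mylk2 and Mrln, both known from muscle fibres, were lower. Mylk2, the kinase of the fast regulatory light chain, had 870.1, 568 and 421 CPM in fish muscle, against 1605, 1207, 1148 and 1414 CPM in control muscle, and its adjusted p was 0.119 with all libraries and 0.0295 without fish 1067. Mrln, which encodes myoregulin, an inhibitor of the calcium pump SERCA, had 29.5, 22.7 and 17.7 CPM in fish muscle, against 52.2, 39.5, 59.6 and 37.9 CPM in control muscle, and its adjusted p was 0.115 with all libraries and 0.0318 without fish 1067. No fish muscle reached a control muscle in either gene. In soy and lard muscle Mrln had 27.2 to 37.1 CPM and 31.2 to 42.3 CPM.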
